A study of Mus musculus with 19 samples.

Results

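The genes described here encode the non-collagenous matrix of muscle: adhesive and matricellular glycoproteins, proteoglycans, and the proteins of elastic fibres and microfibrils, with a few regulators and fibroblast surface proteins beside them. Members came from a list of 40 genes. Of these, 37 had a probe set annotated with 1 gene symbol, and the probe set with the highest mean over the 19 arrays stood for its gene. Spp1, Fbn1 and Efemp2 had none and were not analysed here. After the filter on dim genes 35 members were tested among 7436 genes; Emilin1 and Mfap4 were too dim. Expression was measured on 1 Affymetrix array per sample in the tibialis anterior of 129/SVE mice, 12 h after 50 eccentric contractions. The 4 groups were wild-type mice of 7 to 9 weeks (WT_Adult, 5 arrays) and of 12 to 14 months (WT_Aged, 5), and mice lacking desmin at the same ages (KO_Adult, 5, and KO_Aged, 4). Desmin is the muscle intermediate filament protein that ties Z-discs together; the labels describe the allele no further. All 4 groups had been exercised, so no value below contrasts exercised with resting muscle. Whether each array stands for its own animal is not stated, and the p-values below therefore cover only array-to-array spread, which may be partly technical. Sample titles end in codes whose meaning is not given: those of WT_Adult replicates 3 to 5 start alike, as do those of KO_Adult replicates 3 and 4, and those of WT_Aged replicates 4 and 5 with KO_Aged replicate 4. Whether arrays with like codes share an animal, a litter or a session was not tested.

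Muscle fibres are sheathed by a basement membrane and embedded in connective tissue made mostly by fibroblasts. Fibronectin and the matricellular glycoproteins (tenascins, thrombospondins, Sparc) link cells to matrix and change after injury, while small leucine-rich proteoglycans such as decorin and biglycan coat collagen fibrils. Elastic fibres consist of elastin on a scaffold of fibrillin microfibrils with fibulins, and the latent TGF-beta binding proteins tether the inactive growth factor to this scaffold. Versican binds hyaluronan in provisional matrix; perlecan (Hspg2) and nidogens tie the laminin and type IV collagen networks of basement membranes together.

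The arrays fell into 2 kinds by their control probe sets. Poly-A controls are bacterial transcripts usually added to RNA before labelling. The dap control gave intensities of 1184 to 3103 on 8 arrays, namely the whole WT_Aged group plus 3 arrays of KO_Adult (replicates 3 to 5); on the remaining 11 arrays it gave 1 to 17.4. The first kind is called arrays with controls, the second arrays without controls. Age within wild-type and genotype within aged mice therefore cannot be told apart from control status except through the KO_Adult arrays, of which 2 lack and 3 have the controls. Each member called in a pairwise comparison is given without and with control status as a term; between adult genotypes and between KO ages the term gives the same difference as the arrays without controls alone. On KO_Aged replicates 2 and 3 the 3′ to 5′ ratio of Gapdh, a sign of RNA quality, was 8.61 and 5.01, against 0.766 to 0.968 elsewhere. Des intensity was 10749 to 22313 on WT arrays and 72.7 to 879 on KO arrays, and 5 skeletal muscle genes (Acta1, Ckm, Myh4, Tnnt3, Mylpf) were between 17854 and 43302 on every array. The arrays without controls were not all alike. On the first principal component of the tested genes WT_Adult replicates 4 and 5 lay at -3.29 and 1.57, and KO_Aged replicates 1 and 4 at 6.62 and 1.26. The other 7 lay at -46.3 to -21.3, and arrays with controls at 14.9 to 39.4. These 4 are the arrays apart on the first component, and the cause was not tested.

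In adult muscle without desmin 7 of 35 members differed from adult wild-type: Ltbp1 and Efemp1 were higher, and Sparc, Hspg2, Eln, Ltbp4 and Tgfb1 were lower. A member or gene is called here at an adjusted p under 0.05 in limma. These 2 higher and 5 lower members stood against 7.32% of all tested genes called higher and 9.37% called lower. The median log2 difference was 0.02 over the members and 0.04 over all genes, and 18 of 35 members were positive. With control status as a term 3 of the 7 (Hspg2, Efemp1 and Ltbp1) kept their call and Dpt gained one. Of all genes 3.56% were then called higher and 3.11% lower.

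In aged muscle 8 members differed between genotypes. Bgn, Ltbp1, Ltbp4, Mgp and Dpt were higher and Thbs2, Nid1 and Efemp1 lower in KO_Aged, where 16.9% of all genes were called higher and 12.5% lower. The members' median was 0.38 against 0.07 for all genes, and 25 of 35 differences were positive. This comparison lies wholly across the control status. With the status as a term 1 lower member, Nid1, and 0 higher members remained, against 2.54% and 2.95% of genes.

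Between the ages in wild-type muscle 14 members differed. Thbs1, Thbs2, Aspn, Vcan, Efemp1 and Tgfbi were higher in WT_Aged, and Sparc, Sparcl1, Hspg2, Eln, Ltbp4, Mgp, Mfap2 and Tgfb1 were lower. Of all genes, 18.1% were called higher and 20.8% lower. All WT_Aged arrays carried the controls and no WT_Adult array did; with the status term Efemp1 alone among the members was called, higher by a log2 difference of 1.80 (SE 0.33, adjusted p 0.0471), when 0.0672% of genes were called higher and 0.0269% lower. Between aged and adult KO muscle Tnc and Prelp were higher and 0 members lower, against 3.68% and 3.75% of genes.

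The difference of differences, genotype by age, was called for 10 members. It was positive for Bgn, Prelp, Hspg2, Eln, Ltbp4, Mgp and Tgfb1 and negative for Thbs2, Aspn and Efemp1, against 14.3% and 10.8% of genes. A positive value says that KO minus WT was larger in aged than in adult muscle. With the status term 0 members were called in limma in either direction, 4 of 35 had an unadjusted p under 0.05, and 0.0134% of genes were called in each direction. Each group of arrays enters several of these comparisons, so their counts are not independent of one another. The plot of differences with and without the status term shows both sets side by side.

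**Figure D1:**
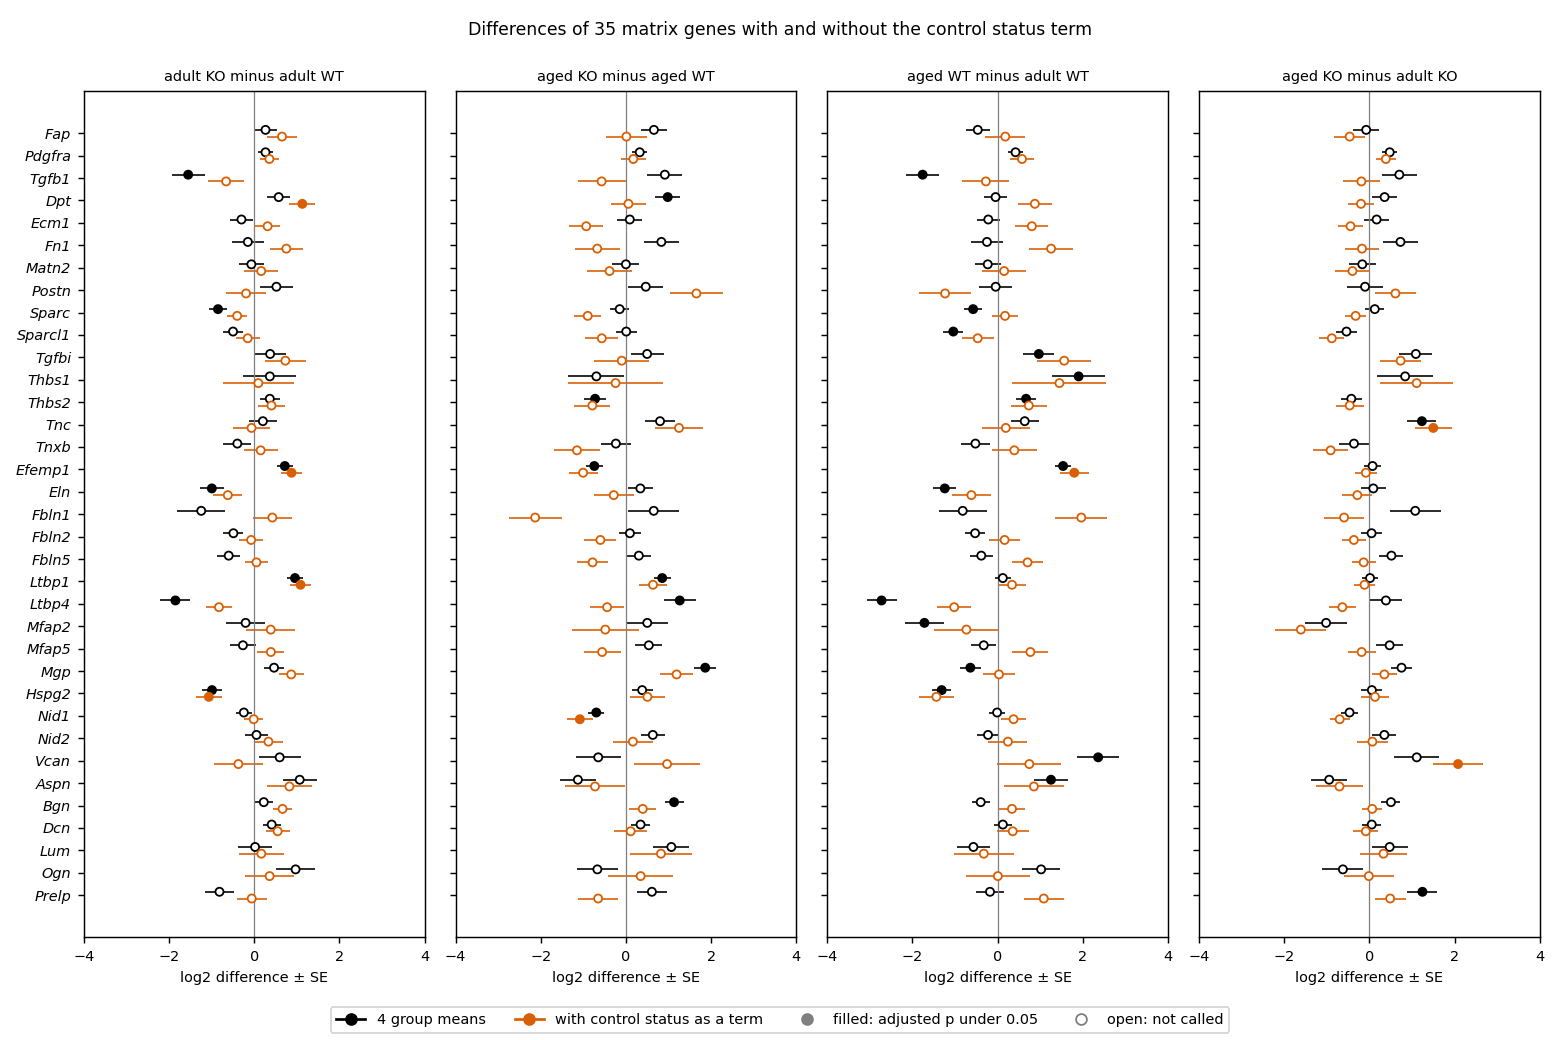
Log2 differences (points, with bars for ± SE) of the 35 tested members in the 4 pairwise comparisons, from the model of 4 group means (black) and with control status as a term (orange); filled points have an adjusted p under 0.05. Black points for Ltbp4 and Tgfb1 lie far from 0 in 3 and 2 panels, and their orange points lie nearer to 0 there.

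The comparison of genotypes free of the control status is that of KO_Adult replicates 1 and 2 with the 5 WT_Adult arrays, taken within the same limma fit of all 19 arrays. There 3 members were higher (Ltbp1, Dpt and Efemp1) and 1 was lower (Hspg2), with 3.56% of genes called higher and 3.11% lower. With only 2 KO arrays these calls rest on few samples: leaving out KO_Adult replicate 2 left 0 members called, and fitting only the 11 arrays without controls also left 0. Dpt, Efemp1 and Hspg2 each lost the call without any 1 of 5 single arrays. Without the 4 arrays apart on the first component, which include WT_Adult replicates 4 and 5, Efemp1 (adjusted p 0.0806) and Hspg2 (0.144) lost it. The 190 bases upstream of these 4 genes are shown because they are the members that differed by genotype at equal control status. Each window lies upstream of its annotated gene, outside the transcribed part; Ltbp1 has 2 starts in the table and the most upstream is used. The windows run from 250 to 61 bases before the start given in the RefSeq promoter table (GRCm38.p6, + strand in all 4), 5′ to 3′, with capitals marking the motifs searched, and 25 of the 37 members with a probe set have an entry in that table.
Hspg2, chr4:137468553-137468742: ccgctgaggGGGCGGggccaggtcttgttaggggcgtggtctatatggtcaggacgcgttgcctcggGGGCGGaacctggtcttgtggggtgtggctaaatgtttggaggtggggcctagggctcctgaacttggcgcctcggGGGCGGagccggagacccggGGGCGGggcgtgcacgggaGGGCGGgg
Efemp1, chr11:28852955-28853144: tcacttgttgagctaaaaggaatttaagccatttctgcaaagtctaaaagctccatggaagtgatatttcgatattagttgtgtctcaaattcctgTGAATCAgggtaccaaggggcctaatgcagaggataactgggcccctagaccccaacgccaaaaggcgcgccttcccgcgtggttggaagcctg
Ltbp1, chr17:75005279-75005468: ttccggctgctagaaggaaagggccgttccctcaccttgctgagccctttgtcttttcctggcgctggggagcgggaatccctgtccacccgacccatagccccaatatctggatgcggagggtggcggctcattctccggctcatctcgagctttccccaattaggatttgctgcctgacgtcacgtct
Dpt, chr1:164796413-164796602: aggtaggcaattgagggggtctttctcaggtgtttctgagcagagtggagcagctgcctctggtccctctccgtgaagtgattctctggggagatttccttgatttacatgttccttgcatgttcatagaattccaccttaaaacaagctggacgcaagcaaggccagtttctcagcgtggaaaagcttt
Searched on both strands were TATAAA, the GC box GGGCGG, the AP1-like pattern TGANTCA, in which N is any base, and the SMAD core CAGAC. The Hspg2 window held 5 copies of the GC box and the Efemp1 window 1 match to TGANTCA, with A as its central base. None of the 4 motifs was found in the windows of Ltbp1 and Dpt. Over 32851 promoter windows of the same length the shares with a match were 8.73% for TATAAA, 22.8% for GGGCGG, 5.22% for TGANTCA and 34.6% for CAGAC. The 4 windows differ in base composition, with 70.5% G or C in Hspg2, 58.9% in Ltbp1, 48.4% in Dpt and 47.9% in Efemp1.

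Ltbp1, which binds latent TGF-beta and anchors it to microfibrils, was higher in desmin-deficient muscle at both ages. Its intensities were 202, 156, 191, 168 and 156 in WT_Adult, 122, 202, 140.4, 217 and 196 in WT_Aged, 262 and 401 in KO_Adult without the controls, 286, 269 and 305 in KO_Adult with them, and 299.6, 347, 328 and 349 in KO_Aged. Every KO array was above every WT array, whatever the age and control status. Ltbp1 was the 1 member of 35 with this separation upward and 0 members had it downward, against 0.968% and 0.565% of all genes; the comparison of all 9 KO with all 10 WT arrays was chosen after its values were seen. KO exceeded WT by a log2 difference of 0.96 (SE 0.19, adjusted p 0.00214) in adults, 1.94-fold, and by a log2 difference of 0.85 (SE 0.20, adjusted p 0.00363) in aged mice. Among arrays without controls the adult difference was log2 1.09 (SE 0.24, adjusted p 0.0159), and among arrays with controls KO_Adult exceeded WT_Aged by a log2 difference of 0.75 (SE 0.21, adjusted p 0.034), a contrast in which genotype and age differ together. The aged difference with the status term was a log2 difference of 0.64 (SE 0.33, adjusted p 0.239) and was not called. Without the 2 high-Gapdh arrays it was log2 0.71 (adjusted p 0.0664), also not called. The call among arrays with controls was lost without any 1 of 5 single arrays (adjusted p up to 0.148). The adult call among arrays without controls was lost without KO_Adult replicate 2 (adjusted p 0.376). Ages differed by log2 0.12 in WT and 0.02 in KO, neither called, and KO_Adult replicate 2 was the highest of all arrays.

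Ltbp4, a latent TGF-beta binding protein that also takes part in elastic fibre assembly, had the largest interaction among the members. Its intensities were 958, 1059.7, 1762, 1175 and 1192 in WT_Adult, 176, 139, 242, 179.7 and 168 in WT_Aged, 802 and 520.1 in KO_Adult without the controls, 192, 169 and 236 in KO_Adult with them, and 697, 246, 361 and 614 in KO_Aged. All arrays with controls were at 242 or below, and the arrays without controls at 246 or above. WT_Adult stood above every other array. Ltbp4 fell by 1.85 on the log2 scale in adult KO muscle (SE 0.35, adjusted p 0.00197) and by 2.72 between WT ages (SE 0.35, adjusted p 5.06e-05), and it was higher in aged KO than aged WT by a log2 difference of 1.26 (SE 0.37, adjusted p 0.0173). Within KO_Adult the arrays with controls were lower by 3.26-fold, a log2 difference of -1.70 (SE 0.33, adjusted p 0.00302). With the status term the WT age difference was log2 -1.02 (adjusted p 0.272), the aged genotype difference turned to log2 -0.44 and the interaction went from log2 3.11 to 0.39, all uncalled. Free of the status, KO_Aged was below WT_Adult by a log2 difference of -1.46 (SE 0.24, adjusted p 0.000298), with no overlap, and KO_Adult by a log2 difference of -0.83 (SE 0.30, adjusted p 0.104), not called. Leaving out KO_Aged replicate 1 or 4 ended the call between aged genotypes (adjusted p up to 0.0526).

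Tgfb1, the growth factor itself, was lower in adult KO and in aged WT than in adult WT muscle. Its intensities were 150.5, 192, 488, 375 and 223 in WT_Adult, 88.2, 63.2, 63.2, 58 and 63.8 in WT_Aged, 169 and 120.3 in KO_Adult without the controls, 56.7, 30.2 and 55.3 in KO_Adult with them, and 212, 56.1, 157 and 178 in KO_Aged. The 8 arrays with controls all lay at or below 88.2, and KO_Aged replicate 2, at 56.1, was the single array without controls in that range. Tgfb1 was lower in adult KO by 2.93-fold, a log2 difference of -1.55 (SE 0.39, adjusted p 0.0114), and lower in WT_Aged than WT_Adult by 3.39-fold, a log2 difference of -1.76 (SE 0.39, adjusted p 0.00258). Without controls the adult genotype difference was log2 -0.66 (SE 0.41, adjusted p 0.342), and with the status term the WT age difference was log2 -0.28 (SE 0.55, adjusted p 0.831); neither was called.

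**Figure D2:**
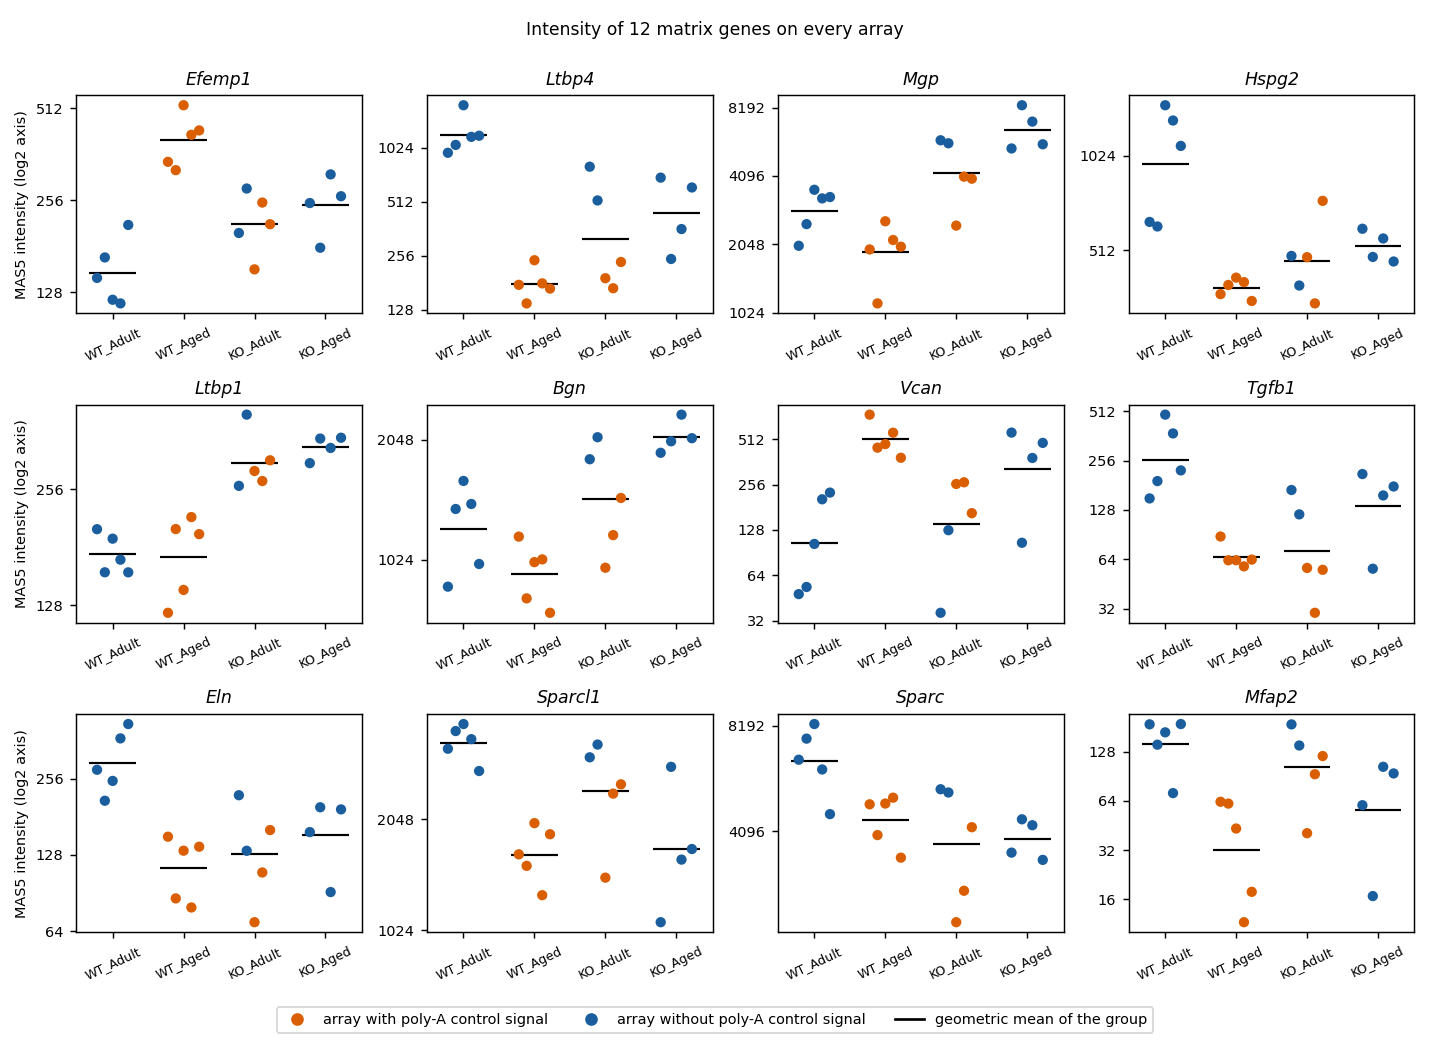
Intensity on a log2 axis (MAS5, as deposited) of the 12 members with the smallest p in any pairwise comparison, by group; each point is an array, orange with and blue without poly-A control signal, and lines are geometric means. For Ltbp1 all KO points lie above all WT points, while for Ltbp4 the orange points lie at or below 242 in both groups that hold them.

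Of the 10 tested members grouped under elastic fibres and microfibrils, 4 (Eln, Ltbp4, Mgp and Mfap2) were lower in WT_Aged than in WT_Adult. Efemp1 was higher and 5 were not called. Of all genes 20.8% were lower and 18.1% higher. The median difference of the 10 was -0.59, against -0.03 over all genes. With the status term the calls of these 4 were lost and Mgp changed sign. Eln, which encodes elastin itself, had intensities of 277, 209, 251, 369 and 419.8 in WT_Adult, 151, 86.3, 133, 79.5 and 138 in WT_Aged, 220.1 and 133 in KO_Adult without the controls, 69.6, 109 and 160.5 in KO_Adult with them, and 158, 197, 91.4 and 194 in KO_Aged. WT_Adult lay above WT_Aged without overlap, whereas the 3 other groups overlapped one another. Eln fell by 1.24 on the log2 scale between WT ages (SE 0.28, adjusted p 0.00258) and was lower in adult KO by a log2 difference of -0.995 (SE 0.28, adjusted p 0.0192), a call lost without KO_Adult replicate 3 (log2 -0.80, adjusted p 0.0597). Between WT ages Eln differed by log2 -0.62 with the status term (adjusted p 0.538). Free of the status, KO_Aged was below WT_Adult by a log2 difference of -0.90 (SE 0.28, adjusted p 0.0194), and KO_Adult by a log2 difference of -0.62 (SE 0.34, adjusted p 0.282), not called. The former call was lost without KO_Aged replicate 3 (adjusted p 0.0816), without both high-Gapdh arrays (0.0561) and without the 4 arrays apart on the first component (log2 -0.73, adjusted p 0.167).

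Mfap2, a microfibril-associated glycoprotein, read 188, 141, 168, 71.4 and 189 in WT_Adult, 63.2, 61.6, 43.4, 11.6 and 17.8 in WT_Aged, 188 and 139.7 in KO_Adult without the controls, 40.6, 93.2 and 120.4 in KO_Adult with them, and 60.2, 16.7, 103 and 94.3 in KO_Aged. WT_Aged was below WT_Adult on every array, by 3.29-fold, a log2 difference of -1.72 (SE 0.46, adjusted p 0.00745), and with the status term by a log2 difference of -0.73 (SE 0.77, adjusted p 0.661), not called. The KO groups spread from 16.7 to 188, so these overlap both WT groups.

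Efemp1 (fibulin-3) was higher in WT_Aged than in WT_Adult. Its intensities were 142, 166, 121, 117 and 212 in WT_Adult, 342, 321, 523, 419 and 433 in WT_Aged, 199.8 and 279 in KO_Adult without the controls, 152, 251 and 213 in KO_Adult with them, and 250.4, 179, 311 and 264 in KO_Aged. Every WT_Aged array exceeded all other arrays. The age difference in WT was 2.9-fold, a log2 difference of 1.54 (SE 0.19, adjusted p 4.45e-05), and it is the age difference that kept its call with the status term. In adults KO exceeded WT by a log2 difference of 0.72 (SE 0.19, adjusted p 0.0175), and without controls by a log2 difference of 0.88 (SE 0.25, adjusted p 0.0456); both pairs of groups overlap. The adult call was lost without WT_Adult replicate 3 (adjusted p 0.0506). In aged mice the sign was opposite, with KO below WT by a log2 difference of -0.74 (SE 0.21, adjusted p 0.0118), and by a log2 difference of -1.01 (SE 0.34, adjusted p 0.0841) with the status term, not called, so the interaction was log2 -1.46 (SE 0.28, adjusted p 0.00162); with the status term it was log2 -1.88 (SE 0.52, adjusted p 0.199), not called. Within the arrays with controls KO_Adult lay below WT_Aged by a log2 difference of -0.92 (SE 0.22, adjusted p 0.0144).

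Mgp, matrix Gla protein, an inhibitor of calcification that associates with elastic fibres, was higher in aged KO than in aged WT muscle. Its intensities were 2019.5, 2515, 3561, 3263 and 3309 in WT_Adult, 1946, 1127, 2588, 2141 and 2000.2 in WT_Aged, 5879 and 5704 in KO_Adult without the controls, 2477, 4067 and 3984 in KO_Adult with them, and 5412, 8384, 7104 and 5646 in KO_Aged. KO_Aged exceeded WT_Aged without overlap, by 3.63-fold, a log2 difference of 1.86 (SE 0.26, adjusted p 6.20e-05), and with the status term by a log2 difference of 1.19 (SE 0.39, adjusted p 0.0781), not called. Both mixed comparisons at equal status were called: KO_Aged exceeded WT_Adult without overlap by a log2 difference of 1.22 (SE 0.23, adjusted p 0.000964) and KO_Adult with controls exceeded WT_Aged by a log2 difference of 0.84 (SE 0.25, adjusted p 0.0446), though age differs with genotype in both. The adult genotype difference was log2 0.46 (SE 0.24, adjusted p 0.194) and without controls a log2 difference of 0.87 (SE 0.29, adjusted p 0.0806), and was not called either way. Between WT ages Mgp was lower by a log2 difference of -0.64 (SE 0.24, adjusted p 0.0432) and turned to log2 0.03 with the status term; the call was lost without any 1 of 7 single arrays (adjusted p up to 0.134).

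The fibulins Fbln1, Fbln2 and Fbln5, which bind elastin, fibronectin or basement membrane proteins, were called in 0 of the 4 pairwise comparisons. Fbln1 intensities were 154, 199, 354, 170.1 and 197 in WT_Adult, 99.1, 47.9, 135, 148 and 116 in WT_Aged, 219.7 and 259.8 in KO_Adult without the controls, 30.2, 60.3 and 9.17 in KO_Adult with them, and 254, 83.5, 157 and 246 in KO_Aged. The 3 KO_Adult arrays with controls were the 2 lowest and the fourth lowest of all arrays, and 2 KO_Adult arrays without controls were among the 5 highest. This contrast within KO_Adult was a log2 difference of -2.78 (SE 0.50, adjusted p 0.00202), 6.88-fold and the largest of any member. Fbln5 differed there by log2 -1.09 (SE 0.29, adjusted p 0.0151) and Mfap5, another microfibril protein, by a log2 difference of -1.10 (SE 0.35, adjusted p 0.0294). The untested Emilin1 ranged from 8.32 to 113 and Mfap4 from 2.38 to 167.

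Among the small leucine-rich proteoglycans Bgn, biglycan, was higher in aged KO than aged WT muscle. Its intensities were 878, 1373, 1615, 1414 and 1001 in WT_Adult, 1172, 821, 1011, 1027 and 755 in WT_Aged, 1829.7 and 2077 in KO_Adult without the controls, 979, 1182 and 1463 in KO_Adult with them, and 1899, 2029, 2366 and 2065 in KO_Aged. The 4 KO_Aged arrays lay above all WT arrays and above 4 of 5 KO_Adult arrays. KO exceeded WT by 2.19-fold in aged mice, a log2 difference of 1.13 (SE 0.22, adjusted p 0.00119), and by a log2 difference of 0.40 (SE 0.31, adjusted p 0.448) with the status term, not called. At equal status KO_Aged exceeded WT_Adult by a log2 difference of 0.73 (SE 0.19, adjusted p 0.00668) without overlap. That call was lost without the 2 high-Gapdh arrays (log2 0.67, adjusted p 0.0512). The interaction, log2 0.90 (SE 0.31, adjusted p 0.0381), turned to log2 -0.27 with the term and was lost without any 1 of 11 single arrays (adjusted p up to 0.0773).

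Prelp, which anchors basement membranes to connective tissue, was the small proteoglycan that differed between KO ages. Its intensities were 572, 623, 913, 381 and 538 in WT_Adult, 558, 255, 598, 830.2 and 430.4 in WT_Aged, 566 and 468 in KO_Adult without the controls, 173, 210.1 and 275 in KO_Adult with them, and 714, 999, 689.9 and 805 in KO_Aged. KO_Aged exceeded KO_Adult without overlap, by a log2 difference of 1.25 (SE 0.35, adjusted p 0.0382), and the KO_Adult arrays with controls were the lowest of that group. Among arrays without controls the KO age difference was log2 0.49 (SE 0.37, adjusted p 0.392), not called, and within KO_Adult the arrays with controls were lower by a log2 difference of -1.26 (SE 0.39, adjusted p 0.0247). The call between KO ages was lost without any 1 of KO_Adult replicates 3 to 5 or KO_Aged replicates 2 to 4 (adjusted p up to 0.102).

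Aspn, asporin, which binds collagen, had intensities of 42.3, 78.6, 26.1, 176 and 131 in WT_Adult, 139.7, 129, 281, 122 and 164 in WT_Aged, 91.4 and 135 in KO_Adult without the controls, 102, 188 and 173 in KO_Adult with them, and 77.5, 50.9, 46.9 and 165 in KO_Aged. WT_Aged was higher than WT_Adult by a log2 difference of 1.25 (SE 0.40, adjusted p 0.0193) with overlapping arrays, and the interaction was log2 -2.19 (SE 0.58, adjusted p 0.0108). The age call was lost without WT_Adult replicate 1 or 3 or WT_Aged replicate 3 (adjusted p up to 0.0637). The age difference was log2 0.85 with the status term (adjusted p 0.575). The second bright probe set of Aspn gave log2 0.47 between WT ages and -0.35 for the interaction (adjusted p 0.821), neither called. The interaction was also not called with the mean of both probe sets (log2 -1.27, adjusted p 0.217) or without the 2 high-Gapdh arrays (log2 -1.76, adjusted p 0.0825). Decorin (Dcn), lumican (Lum) and osteoglycin (Ogn), which bind collagen fibrils, were not called in any of the pairwise comparisons. Dcn ranged from 5101 to 12038, Lum from 508 to 2980 and Ogn from 101 to 933 over all arrays; Lum was higher in aged KO than aged WT by a log2 difference of 1.07 (SE 0.42, adjusted p 0.0629) and Ogn in WT_Aged than WT_Adult by a log2 difference of 1.02 (SE 0.45, adjusted p 0.0809), short of the threshold.

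Vcan, versican, was higher in aged WT than in adult WT muscle. Its intensities were 48, 53.6, 103, 204 and 227 in WT_Adult, 745, 450.1, 475, 566 and 386 in WT_Aged, 36.1 and 128 in KO_Adult without the controls, 258, 265 and 165 in KO_Adult with them, and 567, 105, 384 and 484 in KO_Aged. All WT_Aged arrays exceeded all WT_Adult arrays, by 5.13-fold, a log2 difference of 2.36 (SE 0.50, adjusted p 0.00179); with the status term the difference was log2 0.74 (SE 0.75, adjusted p 0.652), not called. Among KO arrays without controls KO_Aged exceeded KO_Adult by a log2 difference of 2.08 (SE 0.59, adjusted p 0.0357) with overlap, since KO_Aged replicate 2 read 105 and KO_Adult replicate 2 read 128. This was 1 of 2 members higher there, beside Tnc, and 0 were lower, against 4.8% and 5.18% of genes; leaving out KO_Adult replicate 1 or 2 or KO_Aged replicate 1, 3 or 4 ended both calls (adjusted p up to 0.343 for Vcan).

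Hspg2, the basement membrane proteoglycan perlecan, was highest in WT_Adult. Its intensities were 629.6, 609, 1482, 1325 and 1099.7 in WT_Adult, 371, 397, 418, 405 and 353 in WT_Aged, 491 and 395 in KO_Adult without the controls, 486, 346 and 735 in KO_Adult with them, and 599, 487, 558 and 471 in KO_Aged. WT_Aged lay below WT_Adult without overlap, and the 3 highest arrays were WT_Adult replicates 3 to 5. Hspg2 was lower in adult KO by a log2 difference of -0.99 (SE 0.23, adjusted p 0.00714), also without controls, a log2 difference of -1.07 (SE 0.31, adjusted p 0.0453), and lower in WT_Aged by a log2 difference of -1.31 (SE 0.23, adjusted p 0.000482). The latter difference was log2 -1.44 with the status term (adjusted p 0.158), not called. Its difference by control status within KO_Adult was a log2 difference of 0.12 (SE 0.33, adjusted p 0.809). A second Hspg2 probe set was also called lower in both comparisons, by log2 -1.53 and -1.58. In aged mice KO lay above WT without overlap, a log2 difference of 0.38 (SE 0.24, adjusted p 0.25), but was not called, and the interaction was log2 1.37 (SE 0.34, adjusted p 0.00717).

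Nid1, the basement membrane linker nidogen-1, was lower in aged KO muscle. Its intensities were 833, 832, 811, 796 and 1063 in WT_Adult, 819.6, 699, 988, 1047 and 810.0 in WT_Aged, 832 and 787 in KO_Adult without the controls, 431, 753 and 853 in KO_Adult with them, and 488, 547, 632 and 533 in KO_Aged. KO_Aged lay below both WT groups without overlap. The aged genotype difference was log2 -0.70 (SE 0.19, adjusted p 0.0115), and with the status term a log2 difference of -1.08 (SE 0.31, adjusted p 0.0481), the member call that the term left in this comparison. The second probe set of Nid1 gave log2 0.75 here, not called, and the mean of its probe sets 0.025. Nid2 ranged from 48.8 to 150 and was not called.

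Fibronectin (Fn1), which assembles provisional matrix, was not called between groups although its arrays varied widely. Its intensities were 969, 1463, 1617, 1233 and 830.5 in WT_Adult, 1500.2, 685, 866, 1871 and 606 in WT_Aged, 1758 and 2263 in KO_Adult without the controls, 596, 542 and 1057 in KO_Adult with them, and 1582, 2181, 2385 and 1356 in KO_Aged. The 3 KO_Adult arrays with controls lay below the 2 without, by 2.84-fold, a log2 difference of -1.51 (SE 0.43, adjusted p 0.0187). With the mean of the Fn1 probe sets this difference was log2 -0.60 (SE 0.42, adjusted p 0.303), not called. In aged mice KO exceeded WT by a log2 difference of 0.83 (SE 0.40, adjusted p 0.127), while a second, dimmer probe set of Fn1 gave log2 -1.91 and was called.

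Sparc, a collagen-binding matricellular protein, read 6554, 7528, 8285, 6148 and 4584 in WT_Adult, 4889.9, 3995, 4915, 5108 and 3444 in WT_Aged, 5398 and 5284 in KO_Adult without the controls, 2254, 2771 and 4207 in KO_Adult with them, and 3560.1, 4431, 4262 and 3394 in KO_Aged. Adult KO was lower than adult WT by a log2 difference of -0.85 (SE 0.21, adjusted p 0.0113) and WT_Aged than WT_Adult by a log2 difference of -0.58 (SE 0.21, adjusted p 0.0402). The groups overlap in both. With arrays centred on their medians instead of quantile-normalised both calls were lost (log2 -0.54, adjusted p 0.148, and log2 -0.38, adjusted p 0.26). KO_Aged lay below WT_Adult without overlap, a log2 difference of -0.72 (SE 0.19, adjusted p 0.00784). With the status term the WT age difference turned to log2 0.17, and its call was lost without any 1 of 6 single arrays (adjusted p up to 0.105). In adults the difference with the term was -0.40 (adjusted p 0.306). A second bright Sparc probe set was called lower in adult KO (log2 -1.55) and in WT_Aged (log2 -1.76). It was also called higher in aged KO than aged WT (log2 1.10, adjusted p 0.0374) and in the interaction (log2 2.64, adjusted p 0.0017), where the chosen probe set gave log2 -0.15 and 0.70, not called. Its relative Sparcl1 read 3184, 3557, 3716, 3381 and 2771 in WT_Adult, 1646, 1532, 2000.1, 1275 and 1866 in WT_Aged, 3018 and 3269 in KO_Adult without the controls, 1423, 2405 and 2549 in KO_Adult with them, and 1077, 2844, 1592 and 1701 in KO_Aged. WT_Aged was below WT_Adult without overlap, by a log2 difference of -1.04 (SE 0.23, adjusted p 0.00275), and KO_Aged below WT_Adult by a log2 difference of -1.03 (SE 0.23, adjusted p 0.00288). The WT age difference was log2 -0.47 with the status term (adjusted p 0.571).

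Tenascin-C (Tnc), a glycoprotein of injured muscle and tendon, was higher in aged than adult KO muscle. Its intensities were 162, 204, 156, 131 and 86.5 in WT_Adult, 287, 159, 194, 252 and 139 in WT_Aged, 78.6 and 161 in KO_Adult without the controls, 212, 167 and 114 in KO_Adult with them, and 476, 179, 609 and 335 in KO_Aged. KO_Aged replicates 1, 3 and 4 were the 3 highest arrays, and replicate 2 lay within the range of KO_Adult. The KO age difference was log2 1.23 (SE 0.34, adjusted p 0.0356) and without controls a log2 difference of 1.5 (SE 0.44, adjusted p 0.0402). Without KO_Aged replicate 1, 3 or 4 both calls were lost; the first was also lost without KO_Adult replicate 1, 4 or 5 (adjusted p up to 0.144), and the second without replicate 1 or 2 (up to 0.319). KO_Aged exceeded WT_Adult by a log2 difference of 1.44 (SE 0.34, adjusted p 0.00443).

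The thrombospondins, which bind cells and matrix and regulate TGF-beta activity, were higher in WT_Aged than in WT_Adult, and with the status term neither was called. Thbs1 intensities were 119.8, 191, 246, 435 and 187 in WT_Adult, 1193, 586, 655, 1446 and 393 in WT_Aged, 249.7 and 162 in KO_Adult without the controls, 344, 789 and 80.9 in KO_Adult with them, and 1918, 106, 694 and 331 in KO_Aged. Its WT age difference was 3.73-fold, a log2 difference of 1.90 (SE 0.62, adjusted p 0.0227), with overlap of the groups, and was lost without WT_Adult replicate 1 or WT_Aged replicate 1 or 4 (adjusted p up to 0.0568). Modelled with the status it was log2 1.45 (SE 1.10, adjusted p 0.549). KO_Aged spanned the widest range, from 106 to 1918. Thbs2 intensities were 114, 94, 136, 105 and 103 in WT_Adult, 94.6, 153, 302, 172 and 124 in WT_Aged, 123 and 123 in KO_Adult without the controls, 90.5, 113 and 152 in KO_Adult with them, and 128, 70.9, 78.3 and 120.5 in KO_Aged. It was higher in WT_Aged than WT_Adult by a log2 difference of 0.67 (SE 0.23, adjusted p 0.0318) and lower in aged KO than aged WT by a log2 difference of -0.72 (SE 0.25, adjusted p 0.0355); without WT_Aged replicate 2, 3 or 4 both calls were lost, as was the first without WT_Adult replicate 2, 4 or 5 (adjusted p up to 0.0917) and the second without KO_Aged replicate 2, 3 or 4 (up to 0.104). These 2 Thbs2 differences with the status term were 0.73 (adjusted p 0.431) and -0.79 (adjusted p 0.256) on the log2 scale. The second bright probe set of Thbs2 gave log2 -0.02 between WT ages and 0.67 between aged genotypes, the opposite sign, and the mean of both gave -0.027 between aged genotypes, none called. The second of Thbs1 gave log2 0.37 between WT ages, not called.

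Tgfbi, a TGF-beta-induced adhesion protein, read 732, 1376, 1381, 758 and 533 in WT_Adult, 2569, 1899.6, 1279, 3028 and 795 in WT_Aged, 1062 and 1907 in KO_Adult without the controls, 1155, 869 and 918 in KO_Adult with them, and 2173, 2509, 3922 and 1755 in KO_Aged. It was higher in WT_Aged than WT_Adult by a log2 difference of 0.97 (SE 0.36, adjusted p 0.043), and in KO_Aged than WT_Adult without overlap by a log2 difference of 1.46 (SE 0.38, adjusted p 0.00776). The first call was lost without any 1 of 6 single arrays (adjusted p up to 0.115), and with the status term that difference was log2 1.56 (adjusted p 0.283). The second call was lost without the 2 high-Gapdh arrays (log2 1.13, adjusted p 0.0896). Dermatopontin (Dpt), which binds decorin and collagen, read 1043, 1266, 889, 668 and 824 in WT_Adult, 850.3, 721, 1005, 985 and 891 in WT_Aged, 1906 and 2065 in KO_Adult without the controls, 807, 1137 and 1280.0 in KO_Adult with them, and 1047, 2617, 2332 and 1644 in KO_Aged. Dpt was higher in aged KO than aged WT by a log2 difference of 0.98 (SE 0.29, adjusted p 0.0165) without overlap, and in adult KO than adult WT without controls by a log2 difference of 1.13 (SE 0.31, adjusted p 0.0362), where the 2 KO arrays lay above all 5 WT arrays. The aged difference with the status term was 0.06 on the log2 scale (SE 0.41, adjusted p 0.946). The aged call was also lost without KO_Aged replicate 2 or 3, the 2 arrays with the high Gapdh ratio. Tnxb, Postn, Ecm1 and Matn2, the other glycoproteins, were not called between groups; Tnxb ranged from 194 to 1206, Postn from 97.2 to 831, Ecm1 from 181 to 633 and Matn2 from 28.4 to 154.

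The fibroblast surface proteins were not called in the 4 pairwise comparisons by their brightest probe sets. Pdgfra, a growth factor receptor that marks fibroblasts and their precursors, read 549.9, 776, 926, 881 and 709 in WT_Adult, 1282, 819.6, 997, 1228 and 823 in WT_Aged, 1009 and 824 in KO_Adult without the controls, 864, 856 and 876 in KO_Adult with them, and 1349, 992, 1491 and 1389 in KO_Aged. KO_Aged lay above WT_Adult without overlap, by a log2 difference of 0.74 (SE 0.18, adjusted p 0.00444). Its WT age difference, log2 0.42 (SE 0.17, adjusted p 0.0544), fell short of the threshold, and a second, dimmer probe set gave log2 -0.81 there and was called. That probe set was also called higher in aged KO than aged WT (log2 1.41, adjusted p 0.00362), in aged than adult KO (log2 1.14, adjusted p 0.0396) and in the interaction (log2 1.95, adjusted p 0.00423), so the 2 probe sets of Pdgfra disagree. The protease Fap ranged from 144 to 555.

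Members also differed by control status inside a single group. In KO_Adult, arrays with controls were lower than those without in 11 members (Fn1, Sparc, Bgn, Prelp, Fbln1, Fbln5, Ltbp4, Ecm1, Mfap5, Tgfb1 and Dpt) and higher in 0, while 12.9% of all genes were called lower and 13.4% higher. The median difference was -0.60 over the members and -0.13 over all genes, and 28 of 35 were negative. The elastic fibre group had 4 of 10 called and a median of -0.84; the small proteoglycans had 2 of 6 called and a median of -0.24. Vcan, Postn and Ogn had the largest positive differences, none called. These values rest on 3 and 2 arrays, and without KO_Adult replicate 1 or 2 the count fell from 11 to 2 (Fbln1 and Ltbp4), without replicate 3 to 3 and without replicate 4 to 4.

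**Figure D3:**
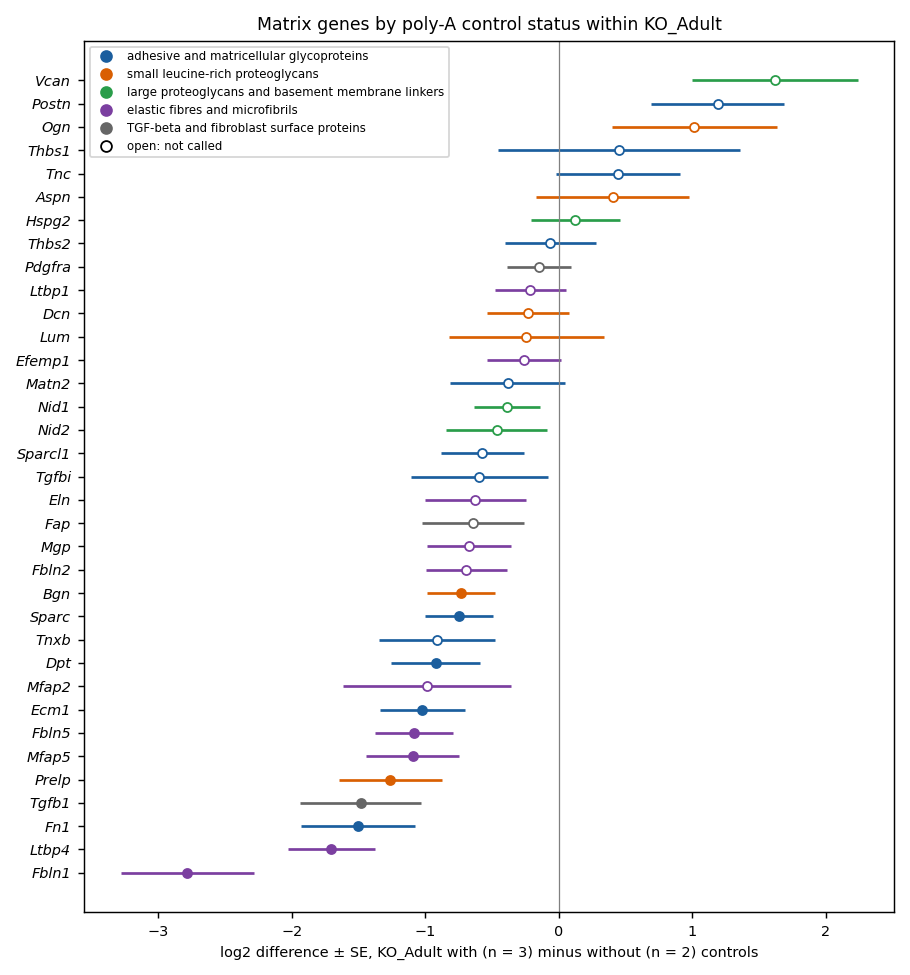
Log2 difference between KO_Adult arrays with (3) and without (2) poly-A control signal for the 35 tested members, with ± SE bars, coloured by role; filled points have an adjusted p under 0.05. All 11 filled points lie below 0, from -2.78 for Fbln1 to -0.73 for Bgn.

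Fibroblast and tendon markers moved with control status in the same arrays. In KO_Adult the summed intensity of 12 fibroblast markers was 21228 to 36746 with controls and 46879 to 50237 without. Of the 10 tested 4 were lower with controls, against 12.9% of genes. Of 8 tendon markers the sum was 3066 to 4333 with and 6851 to 8166 without, and 2 of the 4 tested were lower; Comp, a cartilage and tendon matrix protein, differed by log2 -1.69. Fibroblast markers also differed between the WT ages, with 4 of 10 lower and 2 higher in WT_Aged, against 20.8% and 18.1% of genes. Their sums were 16077 to 24509 in WT_Aged and 28518 to 41491 in WT_Adult, without overlap. In aged KO against aged WT 3 were higher and 1 lower (16.9% and 12.5% of genes), with a sum of 28292 to 42131 in KO_Aged. The WT age and aged genotype comparisons lie wholly across control status. No marker of either list was at 0 on any array, and their part in the members' differences was not tested. In whole tissue, fewer cells of a type and less RNA per cell cannot be told apart. The members' status differences within KO_Adult and their WT age differences, which share no array, correlated at r = 0.65 across the 35 members and at 0.71 across all 7436 genes; genes on an array share labelling, and no p is given.

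**Figure D4:**
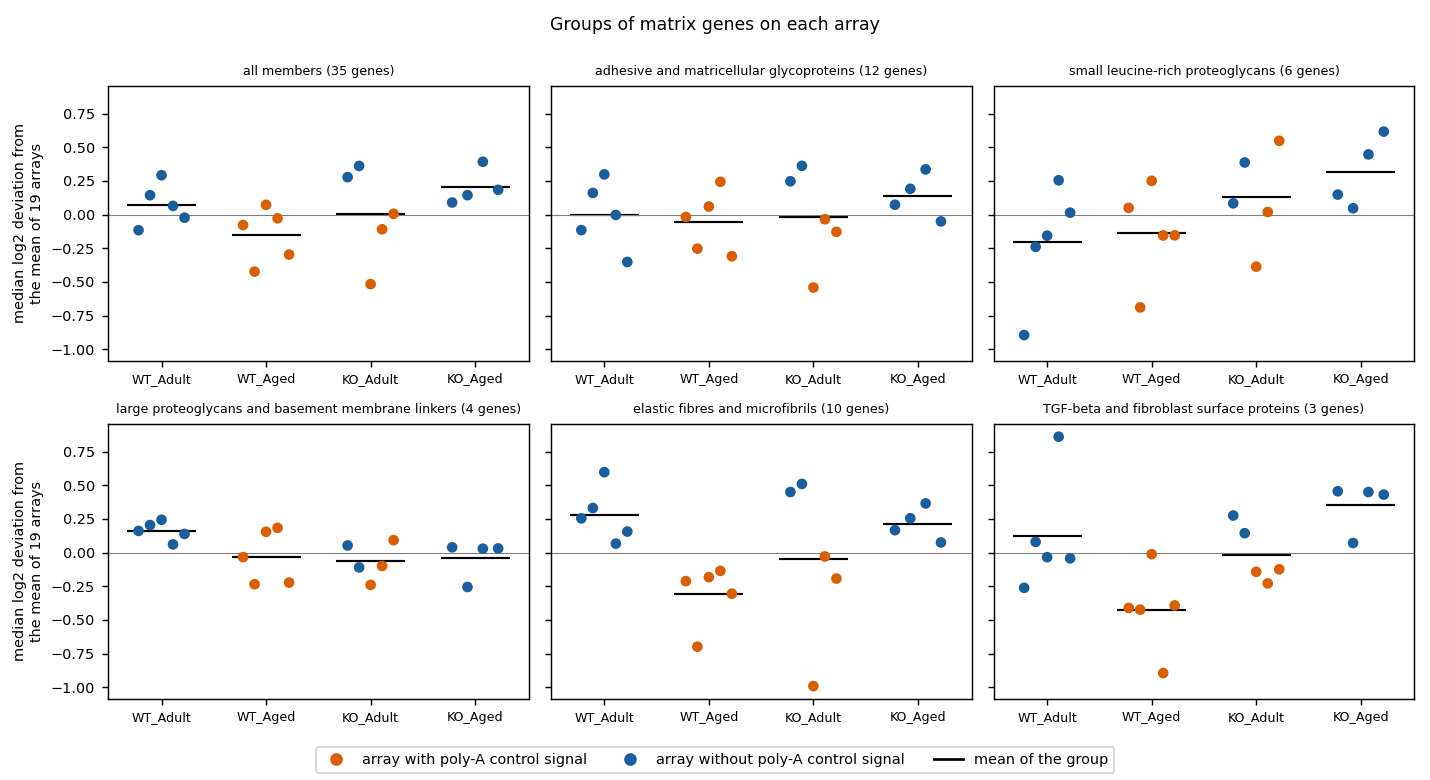
Median, over the tested members of each role group, of the log2 deviation from the gene's mean over 19 arrays, for each array by group; orange arrays have and blue arrays lack poly-A control signal, and lines are group means. For the 10 elastic fibre genes every WT_Adult and KO_Aged array lies above 0, and every array with controls lies below 0.

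Across the remaining pairs of groups of equal status, KO_Aged and WT_Adult, both without controls, differed in 15 members: 9 were higher (Tnc, Bgn, Vcan, Efemp1, Ltbp1, Mgp, Tgfbi, Dpt and Pdgfra) and 6 lower (Sparc, Sparcl1, Hspg2, Nid1, Eln and Ltbp4). Of all genes 15.8% were higher and 15.2% lower. Genotype and age differ together here, and this contrast was added after the data were seen. Without the 2 high-Gapdh arrays Bgn, Dpt, Eln and Tgfbi lost the call (adjusted p 0.0512, 0.182, 0.0561 and 0.0896). Without the 4 arrays apart on the first component Eln, Hspg2, Nid1, Sparcl1 and Tnc lost it (adjusted p 0.0531 to 0.167). Between KO_Adult and WT_Aged arrays with controls 2 members were higher (Ltbp1 and Mgp) and 3 lower (Prelp, Fbln1 and Efemp1), against 4.59% and 4.75% of genes; each of the 5 calls was lost without at least 2 single arrays. Ltbp1 was higher and Ltbp4 was not called in the latter, a log2 difference of 0.19 (SE 0.26, adjusted p 0.713).

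After the mean of each group and status was subtracted, the median Pearson r over 595 pairs of members was 0.16, against 0.035 for all pairs of tested genes. The closest pairs were Mfap5 with Fbln2 (r = 0.88), Aspn with Ogn (0.83), Sparc with Fn1 (0.82) and Tgfbi with Fn1 (0.79), and the most opposed were Eln and Tnc (-0.77). By role the median r was 0.21 among the adhesive glycoproteins, 0.24 among the small proteoglycans and 0.13 among the elastic fibre genes, and it was negative among the large proteoglycans and basement membrane linkers (-0.10) and the 3 TGF-beta and fibroblast proteins (-0.24). These are descriptions over 19 arrays that share labelling and normalisation.

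Other matrix genes were counted in lists of the same biology. For these lists too, the WT age and aged genotype comparisons lie wholly across control status. Of 17 collagens and laminins, 10 were higher and 0 lower in aged KO than aged WT, where 16.9% of all genes were higher. In WT_Aged 13 were lower and 0 higher than in WT_Adult, where 20.8% of genes were lower. In adult KO 1 was higher and 6 lower than in adult WT (9.37% of genes lower), and by control status within KO_Adult 5 were lower and 0 higher (12.9% of genes lower). The type I collagen gene Col1a1 differed by log2 -4.78 between WT ages and by log2 -3.41 by control status within KO_Adult. In adult KO against WT without controls 0 of 17 were called, with an adjusted p of 0.0536 for the laminin chain Lama2. Of 16 matrix proteases and inhibitors 7 were higher and 0 lower in WT_Aged than WT_Adult, against 18.1% and 20.8% of genes. Among the 7 were the aggrecanases Adamts1 (log2 2.16) and Adamts4 (log2 2.69). Without controls 5 were higher and 0 lower in adult KO, against 3.56% and 3.11% of genes. The 5 included Mmp2 (log2 1.04), Mmp14 (log2 1.38) and the inhibitor Timp2 (log2 1.05).

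Of 17 other genes of the TGF-beta pathway 2 were lower and 0 higher in adult KO, against 9.37% and 7.32% of genes. The 2 were the endothelial co-receptor Eng (log2 -1.52) and the receptor Acvrl1 (log2 -0.996). Between WT ages 3 were higher and 3 lower, against 18.1% and 20.8% of genes. The ligand Tgfb2 (log2 1.88) led the higher and the ligand Tgfb3 (log2 -1.06) the lower. Of 15 matrix receptors 2 were higher and 4 lower in adult KO, against 7.32% and 9.37% of genes. The fibronectin receptor chain Itga5 was lower by log2 -2.08 and the chain Itgav higher by log2 1.62. Of 6 genes for cross-linking and assembly 1 was higher and 1 lower in adult KO, against the same 7.32% and 9.37%. In WT_Aged 2 were higher than in WT_Adult, against 18.1% of genes, and the cross-linking enzyme Lox differed by log2 1.70.

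Markers of other cells were counted between the same groups, and their WT age and aged genotype comparisons too lie wholly across control status. Of 12 endothelial markers 9 were lower in adult KO, against 9.37% of genes, and 8 without controls, against 3.11%. Their summed intensity was 17272 to 21665 in WT_Adult and 6790 to 10065 in KO_Adult. In aged KO against aged WT 8 of the 12 were lower and 1 higher, where 12.5% and 16.9% of genes were. The sums were 7013 to 9008 in KO_Aged and 11282 to 13286 in WT_Aged. Between WT ages 4 were lower and 1 higher, against 20.8% and 18.1% of genes. Of 15 macrophage markers 8 were higher in WT_Aged than WT_Adult (18.1% of genes), with sums of 6087 to 18802 and 5295 to 8918. In KO_Aged 7 were higher and 1 lower than in WT_Adult, against 15.8% and 15.2% of genes. All 4 tested neutrophil markers were higher in WT_Aged and in KO_Aged than in WT_Adult, where 18.1% and 15.8% of genes were. The sum over 7 markers was 494 to 1719 in WT_Adult, 2492 to 13173 in WT_Aged and 6918 to 12714 in KO_Aged. Of 8 tested smooth muscle and pericyte markers 1 was higher and 3 lower in adult KO, against 7.32% and 9.37% of genes. The sums were 8568 to 15358 in WT_Adult and 7161 to 11000.0 in KO_Adult. No marker of these 4 lists was at 0. Their part in the differences of Hspg2, Nid1, Thbs1, Vcan and the other members was not tested.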

How the data were processed

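Each sample was hybridised to 1 Affymetrix mouse array. The deposited values are linear probe set intensities, which the authors computed with MAS5 per the submitters' processing notes (version not given in the sources used here). Present or absent calls were not used here. Of 22690 probe sets, 20380 carry 1 gene symbol in the platform annotation, 691 several, 1555 none, and 64 are controls. Values were quantile-normalised as log2(intensity + 4.76), the pseudocount being the 10th percentile; this understates changes of dim genes. Each of 12393 genes was read from its brightest single-symbol probe set on average, and the upper 60% (7436) were tested with limma 3.58.1 in R 4.3.3 (lmFit, eBayes, Benjamini-Hochberg, called at 0.05), with a mean per group over all 19 arrays. Control status (dap above 100) was added as a term in a second model. Fitted differences are on the log2(intensity + pseudocount) scale and folds are 2 raised to them; the number of arrays limits the precision. Members, lists and tests were chosen with earlier results of these data known. Per-array values are given for members called in a pairwise comparison and for the leading members of each role; outside the members, Des and the leading genes of each list are named. On simulated data with 7436 genes, 68% of changes of 1 on the log2 scale were recovered in the adult genotype comparison, 60% in the aged one, 68% between WT ages and 65% between KO ages. False calls were 6.32%, 4.32%, 7.47% and 2.45% of calls in that order. The simulated noise was independent between genes and held no effect of control status, so these rates do not cover comparisons that such an effect confounds. Figures were drawn with matplotlib 3.10.9.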

Additional observations from a re-analysis of the deposited data

Results flagged for a closer look

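Within the 148 combinations of member and group examined, 13 held a single array far from the rest, by Dixon's critical value on the gap to the nearest array. That is 8.78%, where chance gives about 1 in 20. The gaps and ranges were taken on the normalised log2 scale. The intensities printed beside them are linear and as deposited, so a gap cannot be worked out from them. Tnxb in WT_Adult had its highest array, replicate 3, at 1206, with the others at 730.1 to 843 and a gap of 0.749 of the group's range. Tnxb in KO_Aged had its lowest array, replicate 4, at 194, with the others at 655 to 787 and a gap of 0.899 of the group's range. Dcn in KO_Adult had its lowest array, replicate 3, at 6814, with the others at 9427 to 12038 and a gap of 0.819 of the group's range. Nid1 in KO_Adult had its lowest array, replicate 3, at 431, with the others at 753 to 853 and a gap of 0.808 of the group's range. Nid2 in WT_Adult had its lowest array, replicate 5, at 48.8, with the others at 112 to 133 and a gap of 0.785 of the group's range. Fbln2 in KO_Aged had its lowest array, replicate 4, at 507, with the others at 694 to 778 and a gap of 0.893 of the group's range. Ltbp1 in KO_Adult had its highest array, replicate 2, at 401, with the others at 262 to 305 and a gap of 0.76 of the group's range. Emilin1 in WT_Adult had its lowest array, replicate 5, at 8.32, with the others at 79.3 to 112 and a gap of 0.836 of the group's range. Mfap2 in WT_Adult had its lowest array, replicate 4, at 71.4, with the others at 141 to 189 and a gap of 0.77 of the group's range. Matn2 in WT_Aged had its highest array, replicate 3, at 121, with the others at 62.7 to 76.3 and a gap of 0.797 of the group's range. Matn2 in KO_Adult had its lowest array, replicate 3, at 28.4, with the others at 95.4 to 123 and a gap of 0.797 of the group's range. Tgfb1 in KO_Aged had its lowest array, replicate 2, at 56.1, with the others at 157 to 212 and a gap of 0.832 of the group's range. Pdgfra in KO_Adult had its highest array, replicate 1, at 1009, with the others at 824 to 876 and a gap of 0.844 of the group's range. KO_Adult replicate 3 was the stray low array in 3 of the 13.

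Genotype differences in adult and aged muscle differed from each other in limma's interaction test for 10 of 35 members, which are Thbs2 (log2 -1.09, adjusted p 0.0266, and log2 -1.19 with control status as a term), Bgn (log2 0.90, adjusted p 0.0381, and log2 -0.27 with control status as a term), Prelp (log2 1.42, adjusted p 0.0388, and log2 -0.59 with control status as a term), Aspn (log2 -2.19, adjusted p 0.0108, and log2 -1.55 with control status as a term), Hspg2 (log2 1.37, adjusted p 0.00717, and log2 1.57 with control status as a term), Efemp1 (log2 -1.46, adjusted p 0.00162, and log2 -1.88 with control status as a term), Eln (log2 1.33, adjusted p 0.0224, and log2 0.33 with control status as a term), Ltbp4 (log2 3.11, adjusted p 0.00051, and log2 0.39 with control status as a term), Mgp (log2 1.40, adjusted p 0.00861, and log2 0.32 with control status as a term) and Tgfb1 (log2 2.46, adjusted p 0.00508, and log2 0.09 with control status as a term). Of all genes 14.3% were called with a positive and 10.8% with a negative interaction. With the term 0 of these 10 were called. The differences of Hspg2, Thbs2 and Efemp1 were as large or larger with it. Those of Tgfb1, Ltbp4, Mgp, Eln and Aspn came nearer to 0, and Bgn and Prelp changed sign. Without the term the call was lost without any 1 of 12 arrays for Prelp and of 11 for Bgn, without KO_Aged replicate 2 for Eln and without KO_Aged replicate 3 for Thbs2. Leaving out the 2 high-Gapdh arrays ended the calls of Aspn, Bgn, Mgp (adjusted p 0.0537), Prelp and Thbs2. Centring arrays on their medians instead of quantile normalisation ended those of Bgn, Mgp (adjusted p 0.0886) and Prelp. The status and the age of WT arrays cannot be told apart.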

How the results depend on the processing

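The members' counts of calls moved with the settings as follows. They are named in the order adult genotype, aged genotype, WT age, KO age and interaction, where 7, 8, 14, 2 and 10 of 35 were called. Testing only the upper 40% of genes left 3, 5, 8, 1 and 5. Dimmer members were not tested there, and no member that was tested lost its call. With no filter Emilin1 and Mfap4 were tested too, and 0 were left between KO ages. Control status as a term left 4 in the adult genotype comparison, 1 in each of the next pair and 0 in the interaction. Without both arrays of high Gapdh ratio 5 were left between aged genotypes, 0 between KO ages and 5 in the interaction. Fitting only the groups compared left 3 between adult genotypes and 0 between KO ages. Centring arrays on their medians instead of quantile normalisation ended the call of Sparc between adult genotypes and those of Sparc and Mgp between WT ages. It also ended the interaction calls of Bgn, Mgp and Prelp. By control status within KO_Adult it ended those of Bgn, Dpt, Mfap5 and Sparc. Without controls it ended those of Efemp1 and Hspg2 between adult genotypes and of Sparc between KO_Aged and WT_Adult. Array weights gave 18, 13, 8 and 22 for adult genotype, aged genotype, KO age and interaction. The counts over all tested genes, given in the next paragraph, also rose with array weights for adult genotype, KO age and interaction. The rise is therefore not particular to the members. Without the 4 arrays apart on the first component, an alternative added after seeing the data, 1 was left between KO ages. By control status within KO_Adult the count went from 11 to 4 with no filter. Between adult genotypes without controls it went from 4 to 1 with no filter, 2 with the upper 40% and 2 without those 4 arrays; fitting only arrays without controls, also added later, gave 0. Between KO ages without controls it went from 2 to 0 with no filter, 1 with the upper 40%, 1 with the mean of probe sets, 4 without the high-Gapdh arrays and 0 with only arrays without controls. Between KO_Adult and WT_Aged with controls it went from 5 to 2 with no filter and 2 with the upper 40%. The cause of these shifts was not tested, apart from the fewer arrays or genes that a setting uses.

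Leaving out 1 array at a time gave 6 to 9 calls between adult genotypes, 6 to 8 between aged, 10 to 13 between WT ages, 0 to 3 between KO ages and 7 to 14 in the interaction. It gave 2 to 11 by control status, 0 to 4 between adult genotypes without controls, 15 to 17 between KO_Aged and WT_Adult, 0 to 3 between KO ages without controls and 1 to 4 between KO_Adult and WT_Aged. The status term reversed Ltbp4 between aged genotypes (-0.44), Mgp (0.031) and Sparc (0.17) between WT ages, and the interactions of Bgn (-0.27) and Prelp (-0.59); the mean of probe sets reversed Nid1 between aged genotypes (0.025). Over all 7436 genes the counts of calls were 1241, 2190, 2891, 553 and 1864 in the same order. With the status term they were 496, 408, 7 and 2, leaving aside KO age, which stayed within 1.5 times. With array weights they were 3802 (adult genotype), 4627 (WT age), 1268 (KO age) and 3935 (interaction). Without the high-Gapdh arrays they were 1057 (aged genotype), 116 (KO age) and 1075 (interaction), and fitting only the groups compared gave 624 (adult genotype) and 51 (KO age). Between KO ages no filter gave 357 and leaving out the 4 apart arrays 855, which also moved the interaction to 2943. Leaving out those 4 arrays also took the counts from 1952 to 2986 by control status, from 742 to 1229 between KO ages without controls and from 694 to 1292 between KO_Adult and WT_Aged. No filter and fitting only arrays without controls took 496 calls between adult genotypes without controls to 218 and 110, and the 742 to 215 and 10. Leaving out 1 array gave 751 to 1521, 1563 to 2302, 2134 to 3093, 191 to 723 and 1385 to 2321 in the first order, 304 to 1708 by control status, 44 to 744 and 21 to 923 between adult genotypes and KO ages without controls, and 194 to 641 between KO_Adult and WT_Aged.

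Some calls were kept under every alternative in which the gene was tested. They were those of Ltbp1 between adult genotypes, Efemp1 between WT ages, and Fbln1 and Ltbp4 by control status. Between KO_Aged and WT_Adult they were those of Efemp1, Ltbp1, Ltbp4, Mgp, Pdgfra and Vcan. Of these genes Ltbp1, Efemp1, Fbln1 and Vcan were too dim to be tested among the upper 40% of genes. No paired analysis was possible because replicate numbers only follow the order of the samples, and the codes in the sample titles, whose meaning is not given, start alike across groups for WT_Aged replicates 4 and 5 and KO_Aged replicate 4 alone.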
